A study of Mus musculus with 38 samples.

Results

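The cytosolic ribosome of the mouse is built from ribosomal RNA and from the proteins of the Rps genes, which form the small subunit, and of the Rpl genes, which form the large subunit. The members described here are the protein-coding genes of the count table whose GENCODE symbol starts with Rps or Rpl followed by a digit, without the Rps6k kinases and without pseudogenes. The rule found 82 genes among the 27554 of the table, 33 Rps and 49 Rpl. One of them, Rps19bp1, encodes a protein that binds a ribosomal protein and is no ribosomal subunit itself. Of the 82 members, 69 passed the filter on low counts (29 Rps and 40 Rpl), and 13 did not.

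Whole gastrocnemius muscle of male wild-type C57BL/6JRj mice was profiled by QuantSeq, a method that sequences the 3′ ends of polyadenylated RNA, so that a read count depends little on transcript length. One leg had been injected with cardiotoxin, a snake venom toxin that destroys muscle fibers, and both legs were taken on day 5 after injury. The mice were young or aged and received by daily gavage either vehicle (carboxymethyl cellulose) or NAM/PN, a combination of nicotinamide at 200 mg/kg and pyridoxine at 4 mg/kg. The design asks how injury, age and the treatment each change muscle RNA. There were 38 libraries from 23 mice, of which 15 gave both legs. Among young mice, vehicle gave 6 contralateral (uninjured) and 5 injured legs and NAM/PN gave 5 and 3. Among aged mice, vehicle gave 6 contralateral and 3 injured legs and NAM/PN gave 6 and 4. Libraries held between 4032414 and 7507191 counted reads. The sample descriptions are written in different styles, in which all aged and all young NAM/PN mice have 1 style each and young vehicle mice both, and they name the treatment differently in young and aged mice. The contralateral leg belongs to an injured, gavaged animal and is no untouched muscle.

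Ribosomal protein mRNAs are among the most abundant of any growing cell. Most of them start with a C inside a run of pyrimidines, the terminal oligopyrimidine (TOP) tract, through which the kinase mTOR controls their translation. Striated muscle is a known special case, because its fibers carry Rpl3l, a paralog of Rpl3, and the ratio of these genes shifts when fibers form or regenerate. Rpl3 and Rpl3l both encode the large subunit protein that reaches toward the peptidyl transferase center.

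The beginnings of both coding sequences are shown to compare the paralogs. QuantSeq reads fall at the 3′ end instead, to which the word counts after the sequences apply. Both stretches were read from GENCODE transcripts on GRCm38 and start at the start codon. That of Rpl3 lies within chr15:80082526-80083326 on the minus strand, that of Rpl3l within chr17:24727884-24728373 on the plus strand, and each spans 2 exons. Capitals mark the 13 of 60 bases at which they differ.
Rpl3: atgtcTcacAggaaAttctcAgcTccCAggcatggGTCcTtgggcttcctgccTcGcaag
Rpl3l: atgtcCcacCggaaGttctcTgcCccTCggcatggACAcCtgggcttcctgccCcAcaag
Over 1208 aligned coding bases 74.4% were identical, and the longest identical run of the 2 transcripts was 22 bases. Of the 50-base words in the last 300 bases of Rpl3l, 0% occurred in another gene. Of those of Rpl3, 76.5% also occurred in transcripts of 9 other genes, all annotated pseudogenes. The level of Rpl3 can therefore depend on how reads with several matches were counted, which is not given in the sources used here.

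The start of the transcript shows what some members share outside their names. RefSeq windows on GRCm38.p6 were found for 63 members. A C at the annotated start followed by at least 4 bases that are all C or T, read on the coding strand, was found in 13 of these 63 genes (20.6%), in 800 of 26962 other genes (2.97%) and in 0 of 69 mitochondrial ribosomal protein genes. The same letters were found in 2.51% of all windows. The windows below run from 15 bases before the annotated start to 20 after it, so that the start is base 16, and capitals mark the longest run of C and T near it. Rpl14 (chr9:120571502-120571536, plus strand), Rps18 (chr17:33955646-33955680, minus strand) and Rpl15 (chr14:18270967-18271001, minus strand) hold the motif, Rpl13a (chr7:45128726-45128760, minus strand) has its run just after the start, and Rpl3l (chr17:24727811-24727845, plus strand, the upstream of 2 annotated starts) is set beside them as the muscle paralog.
Rpl14: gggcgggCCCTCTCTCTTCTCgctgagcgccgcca
Rps18: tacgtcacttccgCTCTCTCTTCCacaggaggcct
Rpl15: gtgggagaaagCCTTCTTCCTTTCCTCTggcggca
Rpl13a: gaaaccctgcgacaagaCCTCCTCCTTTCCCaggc
Rpl3l: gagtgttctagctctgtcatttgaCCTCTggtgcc
A match to these letters is a description of the annotated start. The annotation may place a start some bases away from the true one.

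The members differed in level by several orders of magnitude. Levels are given as CPM, the reads of a gene per 1000000 reads of the library, after TMM scaling, an adjustment for differences in library composition. Among the highest members by mean over all 38 libraries were Rps20 (993 CPM), Rpl4 (645 CPM), Rpl3l (497 CPM) and Rps14 (459 CPM). In all, 19 members had a mean of at least 100 CPM, 29 lay between 5 and 100 CPM, and 34 lay under 5 CPM and held only 0.828% of the members' reads. Rps6, the small subunit protein that S6 kinases phosphorylate, had 1 read in 1 of 38 libraries. Rpl10l, a testis paralog of Rpl10, had no read in any library.

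Low levels went together with 3′ end sequence that occurs elsewhere in the transcriptome. The share of 50-base words in the last 300 bases that also occur in a transcript of another gene had a median of 30.7% over the 19 members of at least 100 CPM, 62.9% over the 29 between 5 and 100 CPM, and 82.3% over the 34 under 5 CPM. For Rps6 it was 83.3%, shared with 11 genes, all of them pseudogenes. Members of low level were also found without any shared word (5 of the 34), and Rpl13 had 358 CPM with 83.3% of its words shared. One transcript per gene was examined, and the part of shared sequence in the levels was not tested.

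**Figure D1:**
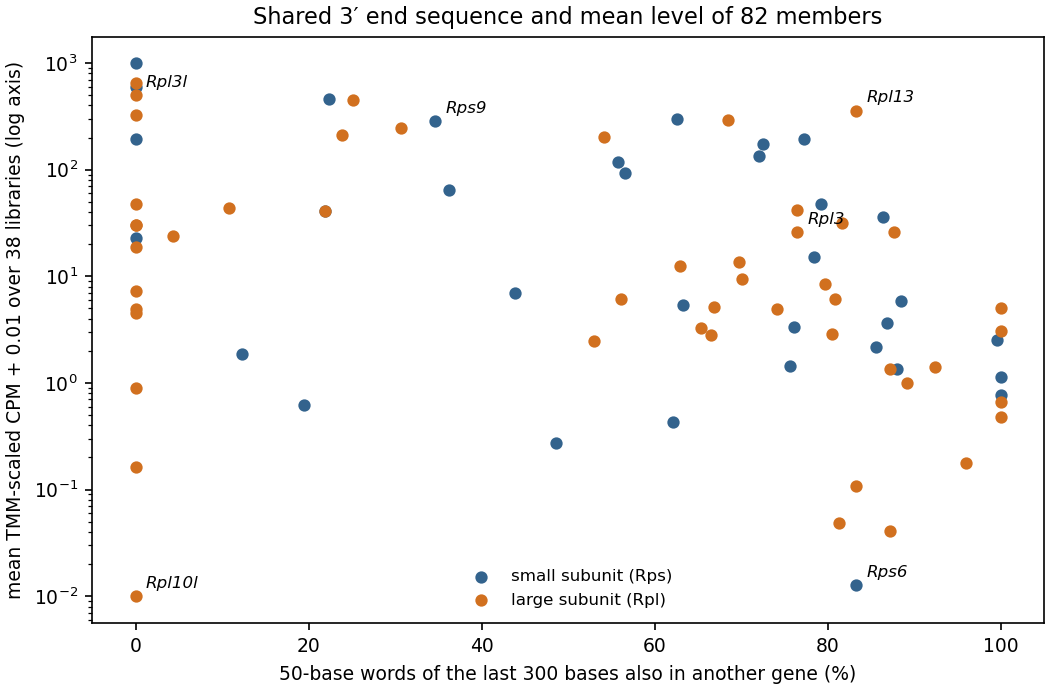
Mean TMM-scaled CPM (plus 0.01, log axis) of each of the 82 members over 38 libraries against the percentage of 50-base words in the last 300 bases of its transcript that also occur in another gene, with small subunit genes in blue and large subunit genes in orange. Members under 1 CPM lie mostly to the right, such as Rps6 at 83.3%, whereas Rpl3l at 0% had 497 CPM.

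A set of members varied strongly between libraries of one group. The leading axis of variation within groups, computed from genes that are not members, held 28.2% of the variance within groups, the next axis 9.72%. At its low end, with scores of -2.98 to -1.41 and the next library at -0.59, lay 5 libraries (aged vehicle contralateral 1 and 4, aged NAM/PN contralateral 4, young vehicle injured 4 and aged NAM/PN injured 4). At the other end lay 2 libraries (aged vehicle contralateral 6 and 5) with scores of 1.62 and 2.19, the next being at 1.09. Rps2, a core protein of the small subunit, had 0 to 4.35 CPM in the 5 libraries and 10.9 to 159 CPM in the other 33. Rpl22l1, the paralog of Rpl22, had 2.12 to 13.4 CPM in the 5 and 26.2 to 80.6 CPM in the others. Both genes were lower in each of the 5 libraries than in any other.

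Other members went the opposite way in the same libraries. Rps20 had 1521 to 2353 CPM in the 5 libraries and 638 to 1065 CPM in the other 33, and Rpl8 had 651 to 915 against 299 to 505 CPM. Of the 69 members tested, 3 (Rps2, Rpl22l1 and Rpl29) lay below and 3 (Rps20, Rpl8 and Rpl26) above all other libraries in these 5. The same count over all genes is not given here, so it describes the members alone. The other leg of the mouse was sequenced for 4 of the 5 libraries, and there Rps2 had 10.9 to 66.7 CPM. Rpl3 and Rpl3l overlapped between the 5 and the other libraries, but both sets mix injured and contralateral legs, between which these genes differ. Within groups, the correlation with the axis was -0.546 for Rpl3 and -0.186 for Rpl3l. Results are given with and without the libraries at the ends of the axis where the count of calls differs.

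**Figure D2:**
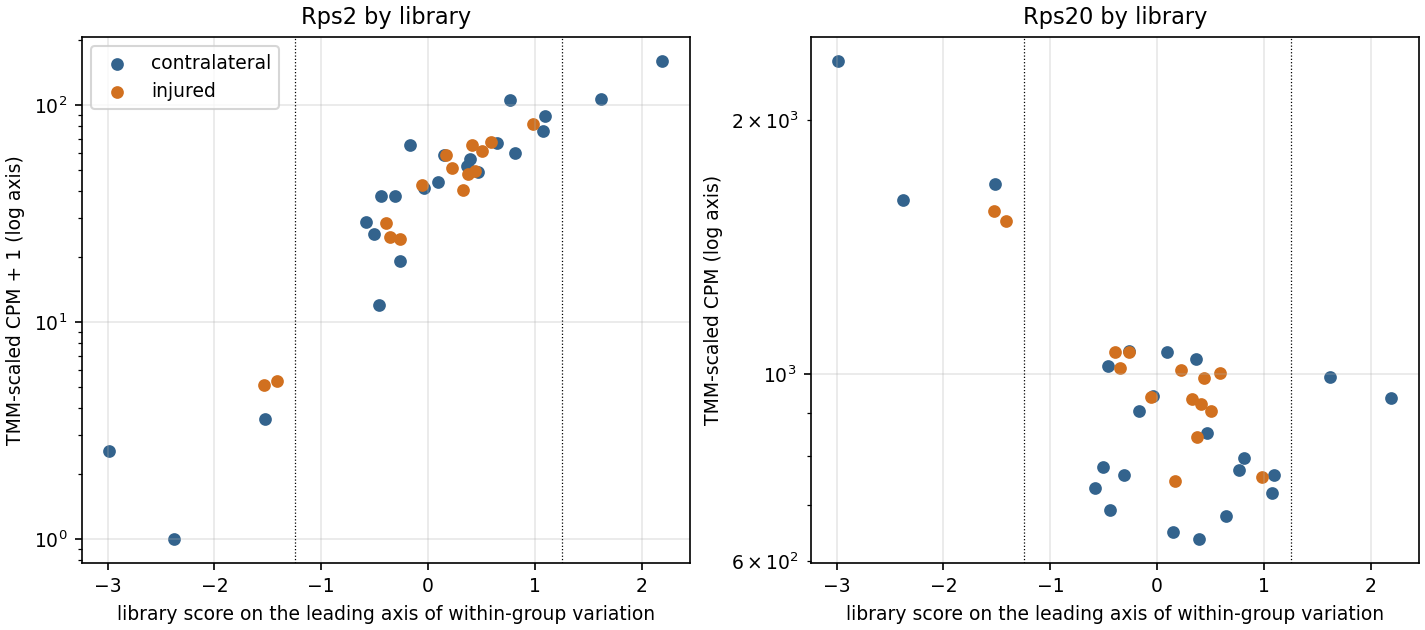
TMM-scaled CPM of Rps2 (left, plus 1) and Rps20 (right), log axes, in each of 38 libraries against the library's score on the leading axis of within-group variation of other genes, with contralateral legs in blue, injured legs in orange and dotted lines that set apart the outer libraries. The 5 libraries left of the first line have the lowest Rps2 (0 to 4.35 CPM) and the highest Rps20 (1521 to 2353 CPM).

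Rpl3 and Rpl3l changed in opposite directions after injury in every group of mice. Rpl3 (Ensembl ENSMUSG00000060036, chr15:80077791-80091868, minus strand) in the contralateral leg ranged from 4.94 to 8.65 CPM around a median of 7.59 in young vehicle mice, from 3.78 to 18.2 around 13.0 in aged vehicle mice and from 4.37 to 18.2 around 7.40 in aged NAM/PN mice. In young NAM/PN mice its contralateral values were 4.24, 5.197, 8.45, 12.7 and 10.99 CPM. The contralateral legs of all groups thus stayed below 20 CPM and overlapped each other.

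In the injured leg Rpl3 had 59.99, 40.3, 68.1, 77.0 and 40.6 CPM in young vehicle mice and 53.8, 42.0 and 33.8 CPM in young NAM/PN mice. It had 33.2, 44.5 and 36.5 CPM in aged vehicle mice and 76.5, 48.6, 47.7 and 70.8 CPM in aged NAM/PN mice. Every injured leg lay above every contralateral leg. The fold change was 7.77 in young vehicle mice (log2 2.96 ± 0.32 SE, edgeR quasi-likelihood test with Benjamini-Hochberg adjustment over 12610 genes, adjusted p = 2.63e-09), 5.13 in young NAM/PN mice (log2 2.36 ± 0.36, adjusted p = 5.11e-06), 3.12 in aged vehicle mice (log2 1.64 ± 0.34, adjusted p = 0.000255) and 6.65 in aged NAM/PN mice (log2 2.73 ± 0.32, adjusted p = 1.55e-08).

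Rpl3l (ENSMUSG00000002500, chr17:24727820-24736143, plus strand) was among the most abundant members. Its contralateral level ranged from 707 to 893 CPM around a median of 819 in young vehicle mice, from 533 to 824 around 738 in aged vehicle mice and from 634 to 842 around 689.8 in aged NAM/PN mice. In young NAM/PN mice the values were 776, 717, 630.2, 709 and 749.6 CPM. These groups overlapped throughout.

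In the injured leg Rpl3l had 51.2, 209, 86.7, 139 and 127 CPM in young vehicle mice and 60.1, 109 and 208 CPM in young NAM/PN mice. It had 323, 139 and 223 CPM in aged vehicle mice and 17.7, 97.1, 64.7 and 138 CPM in aged NAM/PN mice. Every injured leg lay below every contralateral leg, and each aged NAM/PN library lay below each aged vehicle library. Rpl3l was 6.60-fold lower after injury in young vehicle mice (log2 -2.72 ± 0.34, edgeR adjusted p = 3.58e-08), 5.70-fold lower in young NAM/PN mice (log2 -2.51 ± 0.42, adjusted p = 1.77e-05), 3.05-fold lower in aged vehicle mice (log2 -1.61 ± 0.39, adjusted p = 0.00156) and 8.96-fold lower in aged NAM/PN mice (log2 -3.16 ± 0.38, adjusted p = 2.11e-08).

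**Figure D3:**
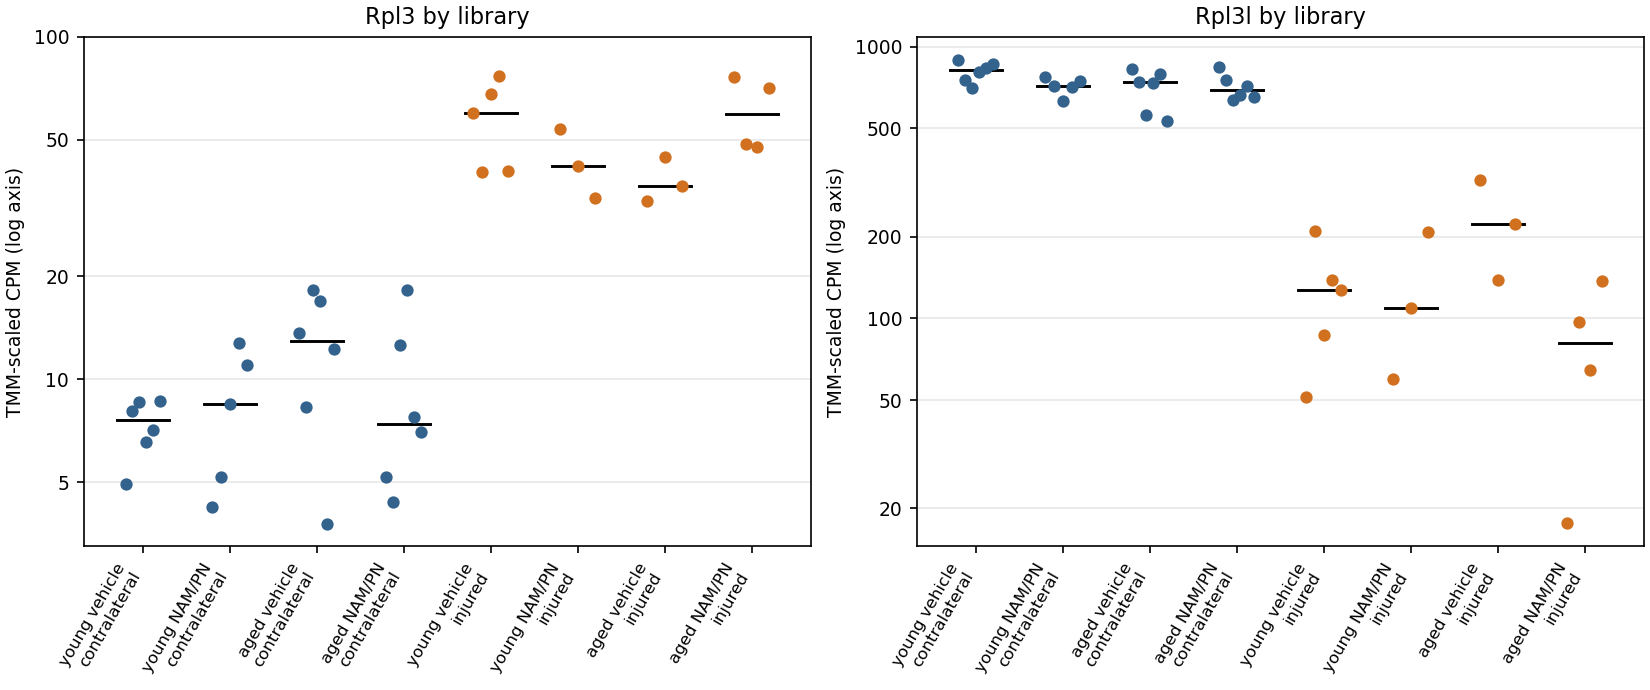
TMM-scaled CPM (log axes) of Rpl3 (left) and Rpl3l (right) in each library of the 8 groups, with contralateral legs in blue, injured legs in orange and a bar at each group's median. For Rpl3 all injured legs lie above 33 CPM and all contralateral legs below 20 CPM, whereas for Rpl3l all injured legs lie at or below 323 CPM and all contralateral legs at or above 533 CPM.

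The ratio of both genes within a library does not depend on how libraries are scaled to each other. Rpl3l had 30.6 to 203 times the reads of Rpl3 in the contralateral legs, and from 9.72 times the reads of Rpl3 down to 0.232 times in the injured legs. The log2 ratio of Rpl3 to Rpl3l, with 0.5 added to each count, rose by 5.78 ± 0.49 (SE) in young vehicle, 5.14 ± 0.78 in young NAM/PN, 3.46 ± 0.62 in aged vehicle and 6.35 ± 0.82 in aged NAM/PN mice. In two-sided exact permutation tests, adjusted over 10 comparisons, p was 0.0216, 0.0446, 0.0397 and 0.0238, each from the smallest value its design allows. Rpl3 was higher and Rpl3l lower in the injured leg of 15 of 15 mice with both legs, and within these mice the log2 ratio rose by 2.14 to 7.29. An exact sign-flip test over the mice of 1 group cannot go below p = 0.0625 with 5 mice or 0.25 with 3.

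Neither gene nor their ratio passed the test between ages or treatments. Between aged and young vehicle mice Rpl3 differed by log2 0.73 ± 0.32 in the contralateral leg (edgeR adjusted p = 0.306) and by log2 -0.59 ± 0.35 in the injured leg (adjusted p = 0.870). Rpl3l differed by log2 -0.21 ± 0.30 (adjusted p = 0.848) and 0.90 ± 0.37 (adjusted p = 0.702). The log2 ratio differed by 0.81 ± 0.43 in the contralateral leg (exact permutation test, adjusted p = 0.152) and by -1.51 ± 0.66 in the injured leg (adjusted p = 0.153). With age the ratio thus moved up in 1 leg and down in the other, neither past the threshold.

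The treatment difference in injured aged muscle was the nearest to the threshold. Rpl3l was 2.88-fold lower in aged NAM/PN than in aged vehicle injured legs (log2 -1.53 ± 0.39, edgeR adjusted p = 0.115, rank 47 among 12610 genes). No library of one group overlapped the other, but the highest aged NAM/PN library lay only just below the lowest aged vehicle library. How many of all genes were likewise free of overlap is not given here. Rpl3 differed by log2 0.68 ± 0.37 (adjusted p = 0.751). The log2 ratio differed by 2.44 ± 0.88, with no overlap (exact permutation test, p = 0.0286, the smallest 4 against 3 mice allow, adjusted p = 0.0571). Rpl3l was called lower by DESeq2 (adjusted p = 0.0120) and by limma voom with quality weights (adjusted p = 0.000599), and by edgeR without aged NAM/PN injured replicate 4 (log2 -1.93, adjusted p = 0.0164). In edgeR without aged NAM/PN injured replicate 1, where Rpl3l was lowest, it was not called (log2 -1.19, adjusted p = 0.629), and over all alternatives the adjusted p ran from 0.000599 to 0.845.

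The summed level of 8 mature fiber markers (Myh4, Myh1, Myh2, Ckm, Acta1, Tnnt3, Pvalb and Mylpf) moved with Rpl3l. It was 56939 to 64641 CPM in aged vehicle and 22945 to 46190 CPM in aged NAM/PN injured legs, again without overlap. The part of mature fiber content in the Rpl3l difference was not tested. In bulk muscle, fewer fibers and less Rpl3l RNA per fiber cannot be told apart.

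The remaining treatment comparisons gave smaller differences. In young mice Rpl3l differed between NAM/PN and vehicle by log2 -0.17 ± 0.31 in the contralateral leg (edgeR adjusted p = 0.995) and by 0.04 ± 0.38 in the injured leg (adjusted p = 1.00). In the contralateral leg of aged mice Rpl3l differed by log2 0.03 ± 0.30 and Rpl3 by -0.41 ± 0.31 (adjusted p = 1 for both). Rpl3 differed in young mice by log2 0.19 ± 0.33 (adjusted p = 0.995) and -0.41 ± 0.35 (adjusted p = 1.00). The log2 ratio differed by 0.26 ± 0.36, -0.39 ± 0.85 and -0.45 ± 0.54 in these 3 comparisons (young contralateral, young injured, aged contralateral; exact permutation tests, adjusted p = 0.515, 0.643 and 0.514).

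Injury raised more members than it lowered in all 4 groups of mice. With an adjusted p under 0.05 in edgeR, 29 of 69 members were higher and 2 lower in young vehicle mice, against 29.3% higher and 26.2% lower over all 12610 genes tested. In young NAM/PN mice 22 were higher and 2 lower (all genes 22.4% and 18.1%), in aged vehicle mice 11 and 2 (20.8% and 17.5%), and in aged NAM/PN mice 27 and 3 (29.2% and 26.1%). The share called higher was thus 42.0%, 31.9%, 15.9% and 39.1%, above that of all genes in 3 groups and below it in aged vehicle mice. The share called lower, 2.90% to 4.35%, was below that of all genes in each.

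The median log2 fold change of the members was 0.51 in young vehicle, 0.61 in young NAM/PN, 0.22 in aged vehicle and 0.52 in aged NAM/PN mice, where the median of all genes lay between -0.01 and 0.05. The medians of the Rps and the Rpl genes were 0.55 and 0.45 in young vehicle mice, 0.68 and 0.60 with NAM/PN, 0.26 and 0.20 in aged vehicle mice and 0.58 and 0.49 with NAM/PN. The Rps median was the higher in each. A fit without scaling factors moved the median of all genes to between 0.69 and 1.08. It called 61, 54, 39 and 60 members higher and 1 lower in each group. How many of all genes it called is not given here. The members' medians were then 1.44, 1.403, 0.87 and 1.56, beside 0.99, 0.83, 0.69 and 1.08 for all genes.

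The counts also moved with the libraries at the ends of the leading axis. The share of all genes called in each of the fits below is not given here. Without these 7 libraries, a choice made after seeing the data, 37, 36, 15 and 38 members were higher and 3, 2, 2 and 3 lower in the 4 groups in the same order. In aged vehicle mice, where 4 of the 6 contralateral libraries are among the 7, the members' median was then 0.42 in place of 0.22. That median was 0.11 to 0.36 without 1 library, 0.41 with the mouse as a block and 0.44 with the mouse as a fixed effect. With the mouse as a fixed effect the young NAM/PN comparison called 13 members higher and 1 lower, and fitted to the compared groups alone the aged vehicle comparison called 5 and 1. Leaving out young vehicle injured 1 or 4 or contralateral 3 gave 20, 19 and 18 calls in place of 31 in young vehicle mice, and leaving out young NAM/PN injured 1 or 2 gave 12 and 14 in place of 24 in young NAM/PN mice.

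Liver markers stood apart in 3 libraries. Alb, Apoa1, Apoa2 and Ttr summed to 970 CPM in young vehicle contralateral 3, 475 CPM in young vehicle contralateral 1 and 145 CPM in young NAM/PN injured 1, and to at most 14.9 CPM in each of the remaining libraries. Without these 3 libraries, a choice made after seeing the data, 18 members were higher and 1 lower in young vehicle mice and 10 and 1 in young NAM/PN mice, with medians of log2 0.51 and 0.56. The share of all genes called without these libraries is not given here. The part of this RNA in the members' levels was not tested.

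Unscaled, the members' share of all reads was also higher in the injured leg. It was 0.480% to 0.601% in contralateral and 0.974% to 1.30% in injured legs of young vehicle mice, and 0.449% to 0.594% against 0.836% to 1.36% in young NAM/PN mice. In aged vehicle mice it was 0.527% to 0.891% against 0.916% to 1.10%, and in aged NAM/PN mice 0.488% to 0.632% against 1.15% to 1.63%. The legs did not overlap in any group, and the share was higher in the injured leg of 15 of 15 mice. In the fit without scaling factors the median log2 fold change was 0.87 to 1.56 for the members and 0.69 to 1.08 for all genes. A higher unscaled value after injury is thus not particular to the members.

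**Figure D4:**
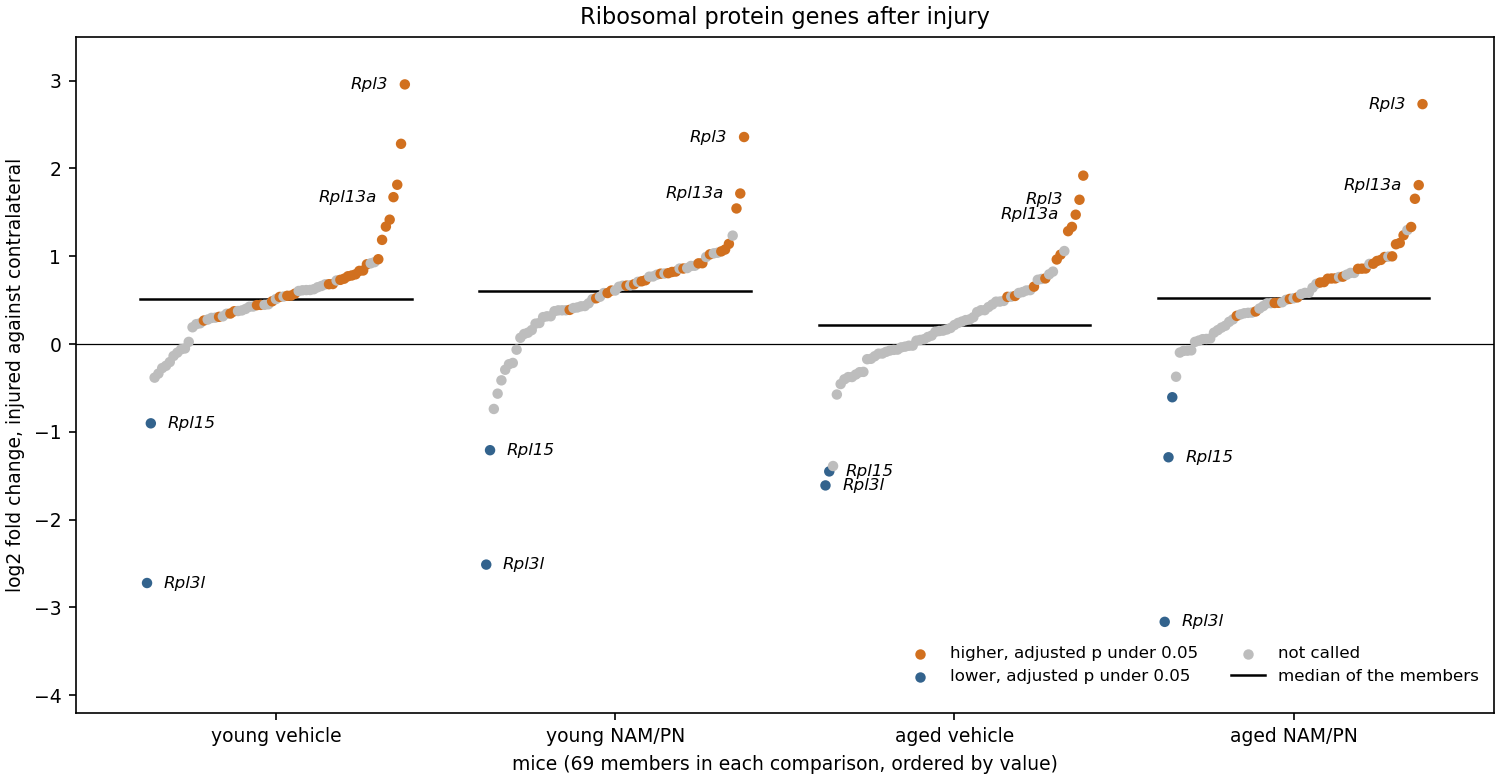
Log2 fold change between injured and contralateral legs of each of the 69 members tested, ordered by value within each group of mice, with orange for members called higher, blue for members called lower, gray for members not called and a line at the members' median (0.51, 0.61, 0.22 and 0.52). Rpl3 and Rpl13a stand at the upper end and Rpl3l and Rpl15 at the lower end in all 4 comparisons, while most members lie between 0 and 1.

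Among the members, 8 were called higher in all 4 injury comparisons, namely Rpl3, Rpl13a, Rpl17, Rpl37, Rpl37a, Rpl41, Rps25 and Rps26, and 16 in at least 3. Rpl3l and Rpl15 were called lower in all 4. In at least 1 comparison 37 members were higher and 3 lower, 29 were called in none, and 0 were called in both directions. The 4 comparisons use separate animals. How many of all genes were called in all 4 or in none is not given here, so these counts describe the members alone.

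Rpl13a, a large subunit protein that can also leave the ribosome to repress inflammatory mRNAs, rose in all 4 comparisons. It had 5.23 to 16.02 CPM around a median of 9.80 in the 23 contralateral legs and 22.9 to 44.8 CPM around 33.3 in the 15 injured legs, which did not overlap. Its log2 fold changes were 1.67 ± 0.23, 1.71 ± 0.26, 1.47 ± 0.25 and 1.81 ± 0.24 in the order of groups used above (edgeR adjusted p between 8.06e-08 and 2.50e-05). None of the words in the last 300 bases of its transcript occurred in another gene.

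Rps26, a small subunit protein at the mRNA exit channel, was the most abundant of the 8. It had 109 to 305 CPM around a median of 239.99 in the contralateral legs and 338 to 466.2 CPM around 393 in the injured legs, again without overlap, and its log2 fold changes were 0.57 ± 0.16, 0.73 ± 0.19, 0.65 ± 0.19 and 0.86 ± 0.17 in the same order of groups (edgeR adjusted p between 7.50e-05 and 0.00587). Rpl17, near the exit tunnel of the large subunit, went from 1.06 to 8.17 CPM in contralateral legs to 5.91 to 14.02 CPM in injured legs, with log2 fold changes of 1.34 to 1.65. Its contralateral and injured legs overlapped in aged vehicle mice only. Of the words in the last 300 bases, 62.5% for Rps26 and 56.2% for Rpl17 also occurred in other genes.

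Rpl37, Rpl37a, Rpl41 and Rps25 complete the 8. Rpl37, a zinc-binding large subunit protein, had log2 fold changes of 0.35 to 0.54 (edgeR adjusted p between 0.00394 and 0.0421), and Rpl37a, of the same kind, of 0.44 to 0.80. Rpl41, the smallest ribosomal protein, had log2 fold changes of 0.61 to 0.96, from a median of 9.29 CPM in contralateral to 16.6 CPM in injured legs. Rps25, a small subunit protein used in translation from viral internal entry sites, had 0.49 to 1.08. All 4 rose in each comparison, and each was higher in the injured leg of 15 of 15 mice except Rps25 (14 of 15). The share of words in the last 300 bases that occurred in other genes was 62.9% for Rpl41 and 43.8% for Rps25. It was 4.38% for Rpl37a and 0% for Rpl37.

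Rpl15, a large subunit protein, fell in all 4 comparisons by 0.90 ± 0.34, 1.21 ± 0.43, 1.45 ± 0.41 and 1.29 ± 0.37 on the log2 scale (edgeR adjusted p between 0.00363 and 0.0235). It had 4.23 to 28.3 CPM around a median of 10.1 in contralateral legs and 2.69 to 7.90 CPM around 4.83 in injured legs. The legs overlapped in both vehicle groups, and 14 of 15 mice had less in the injured leg. Its fold change in young vehicle mice was log2 0.03 with no scaling factors, so that its fall there is a fall relative to other genes. The call was lost in 3 of 11 fits without 1 library in young vehicle (edgeR adjusted p up to 0.0612) and in 3 of 8 in young NAM/PN mice (up to 0.110). Without the 3 libraries with liver markers Rpl15 was called in neither of these groups (log2 -0.63 and -1.17, adjusted p = 0.170 and 0.0817). Of its 3′ words, 79.7% occurred in 19 other genes, all pseudogenes.

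Other members at the ends of the range were called in some of the comparisons or had few reads. Rpl9 was higher by log2 2.28 ± 0.38 in young vehicle mice (0.918 against 4.55 CPM, edgeR adjusted p = 5.15e-06) and by 1.02 ± 0.41 in young NAM/PN mice (adjusted p = 0.0434), but not called in aged vehicle (0.61 ± 0.38, adjusted p = 0.213) or aged NAM/PN mice (0.69 ± 0.36, adjusted p = 0.101). The difference of the injury effect of Rpl9 between aged and young vehicle mice was log2 -1.67 ± 0.55 (edgeR interaction, adjusted p = 0.351). Rps12, whose 3′ words all occur in other genes, was called in young vehicle mice (log2 1.42 ± 0.57, adjusted p = 0.0342), a call lost in 5 of 11 fits without 1 library (adjusted p up to 0.108). It differed by 0.86 ± 0.61 in young NAM/PN, 0.15 ± 0.60 in aged vehicle and 1.30 ± 0.59 in aged NAM/PN mice (adjusted p = 0.0617), where 3 of 10 fits without 1 library called it. Rps28 was higher by log2 1.33 ± 0.45 in aged NAM/PN mice (adjusted p = 0.0116), from a mean of 0.759 to 1.98 CPM. This call was lost in 1 of 10 fits without 1 library (edgeR adjusted p up to 0.0508), and 75.7% of the 3′ words of Rps28 occur in other genes. Rps27a, a fusion of ubiquitin and a small subunit protein, was higher in young mice by log2 0.91 ± 0.38 with vehicle (adjusted p = 0.0403) and 1.14 ± 0.45 with NAM/PN (adjusted p = 0.0391), the latter call being lost in 5 of 8 fits without 1 library (adjusted p up to 0.281). It differed by 0.06 ± 0.44 in aged vehicle and 0.47 ± 0.40 in aged NAM/PN mice. The injury effect on Rps27a differed between aged and young vehicle mice by log2 -0.85 ± 0.58 (edgeR interaction, adjusted p = 0.688). Rpl12 was higher by log2 1.33 ± 0.33 in aged vehicle mice (adjusted p = 0.00151), by 1.15 and 1.19 in aged NAM/PN and young vehicle mice, and differed by 0.77 ± 0.34 in young NAM/PN mice (adjusted p = 0.0702).

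Members at the lower end of the range that were not called had wide errors. Rpl30 differed by log2 -1.39 ± 0.92 in aged vehicle mice (edgeR adjusted p = 0.239) and -0.56 ± 0.93 in young NAM/PN mice, Rps2 by -0.41 ± 0.92 in young NAM/PN mice and Rpl5 by -0.74 ± 0.45 in young NAM/PN mice. Rpl7a and Rpl28 differed by log2 -0.27 ± 0.37 and -0.25 ± 0.46 in young vehicle mice. Rps13 and Rps27 stood at the upper end with log2 1.06 ± 0.52 in aged vehicle mice (adjusted p = 0.102) and 1.24 ± 0.76 in young NAM/PN mice (adjusted p = 0.196), neither called.

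Of the most abundant members, Rps20 differed by log2 -0.35 to 0.35, Rpl4 by -0.40 to -0.06 and Rps14 by -0.10 to 0.16 over the 4 comparisons, none called.

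The other paralog pairs gave few calls. Rpl22 rose by log2 0.47 ± 0.16 in aged NAM/PN mice (edgeR adjusted p = 0.0106) and differed by 0.22 to 0.41 in the other groups, whereas Rpl22l1 differed by -0.38 to 0.24 with errors of 0.51 to 0.61. Rpl7 rose by log2 0.92 ± 0.37 in young NAM/PN mice (adjusted p = 0.0439) and differed by 0.45 to 0.74 elsewhere, and Rpl7l1, a nucleolar relative, differed by -0.20 to 0.13. Rpl39 rose in 3 comparisons (log2 1.02 to 1.24) and differed by 0.60 ± 0.27 in young vehicle mice (adjusted p = 0.0543). Rpl39l, its testis paralog, had at most 5 reads in a library and was not tested.

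Rpl36a was called higher in young vehicle (log2 1.81 ± 0.57, edgeR adjusted p = 0.00732) and aged vehicle mice (1.92 ± 0.57, adjusted p = 0.00770) from 0.260 and 0.317 CPM, and differed by 0.80 ± 0.57 in young NAM/PN and -0.08 ± 0.54 in aged NAM/PN mice. The call of Rpl36a in aged vehicle mice was lost in 1 of 9 fits without 1 library (edgeR adjusted p up to 0.0808). Rpl36al, its intronless copy, differed by log2 -0.57 to 0.06 and was called in none. Rps27l, a paralog of Rps27 induced by p53, fell by 0.61 ± 0.24 on the log2 scale in aged NAM/PN mice (adjusted p = 0.0347), a call lost in 6 of 10 fits without 1 library (adjusted p up to 0.139). It differed by -0.46 to -0.29 elsewhere, and with no scaling factors its change was positive in young vehicle (log2 0.61) and aged NAM/PN mice (log2 0.43). Rps27rt rose in both of these groups (log2 0.83 ± 0.35, adjusted p = 0.0403, and 0.86 ± 0.37, adjusted p = 0.0489), and Rps27 itself, at 0.764 CPM, was called in none. All 50-base words at the 3′ ends of Rpl36a and Rps27 occur in other genes, so that their reads are uncertain.

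Between ages and treatments 0 members were called by edgeR in any comparison. For aged against young vehicle mice this was 0 of 69 in the contralateral leg, where 1.1% of all genes were called and 9 members had an unadjusted p under 0.05, and 0 of 69 in the injured leg (0% of genes, 4 members at unadjusted p). These shares of all genes are at an adjusted p. The shares at an unadjusted p are not given here, so the counts at unadjusted p describe the members alone. The smallest p values belonged in the contralateral leg to Rpl9 (log2 1.39 ± 0.40, adjusted p = 0.0759), Rps20 (0.60 ± 0.23, adjusted p = 0.232) and Rpl6 (-0.50 ± 0.21, adjusted p = 0.296), and in the injured leg to Rpl18 (-0.68 ± 0.25, adjusted p = 0.620), Rpl3l and Rpl36al (-0.76 ± 0.35, adjusted p = 0.751). The members' median was log2 0.20 with age in the contralateral leg (all genes 0.03) and -0.05 in the injured leg (all genes 0.00). With the library axis as a covariate, added after seeing the data, 5 members were called with age in the contralateral leg, of which Rps20, Rpl8 and Rpl9 were higher and Rps2 and Rpl22l1 lower. DESeq2 and voom called 0. Age cannot be told apart from the description style, except that 3 of 6 contralateral and 2 of 5 injured young vehicle libraries have the style of the aged mice.

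For NAM/PN against vehicle, 0 of 69 members were called in the contralateral and injured legs of young mice (0% of all genes in both, 2 and 0 members at an unadjusted p under 0.05), in the contralateral leg of aged mice (0.00793% of genes, 1 gene, and 2 members at unadjusted p) and in their injured leg (0% of genes, 2 members at unadjusted p). DESeq2 and voom with quality weights each called 1 member, Rpl3l, in the last and 0 in the others. The shares of all genes at an unadjusted p are not given here. The members' medians were log2 -0.12, 0.01, -0.15 and 0.08. In the contralateral leg 49 of 69 members in young and 57 of 69 in aged mice were below 0, with no test of such a count because the members of a library share its scaling. The share of all genes below 0 is not given here.

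**Figure D5:**
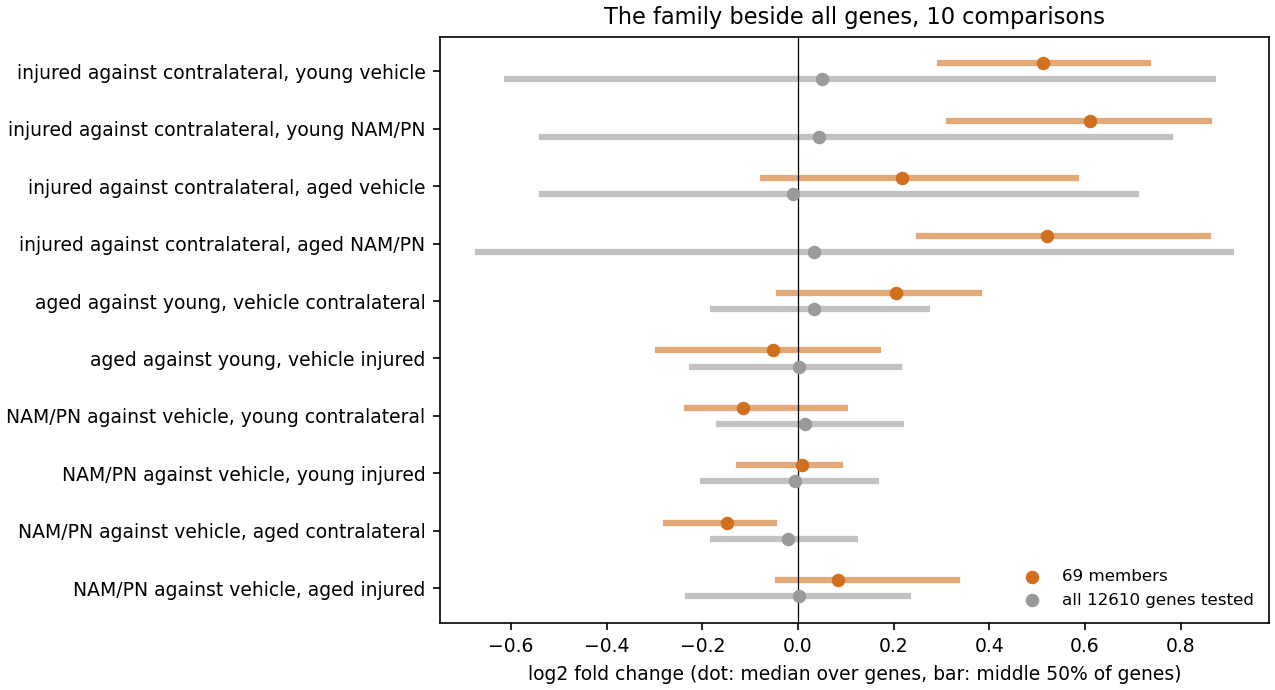
Median (dot) and middle 50% (bar) of the log2 fold changes of the 69 members tested (orange) and of all 12610 genes tested (gray) in the 10 comparisons. The members' medians are 0.22 to 0.61 for injury and -0.15 to 0.20 for age and treatment, while those of all genes lie between -0.02 and 0.05.

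The members with the smallest p in these treatment comparisons were Rps25 (log2 -0.56 ± 0.22), Rpl9 (0.93 ± 0.43) and Rpl7l1 (-0.30 ± 0.17) in the young contralateral leg, Rpl28, Rpl7 and Rpl37a (0.92 ± 0.49, 0.57 ± 0.36 and 0.23 ± 0.16) in the young injured leg, Rpl6, Rps9 and Rpl35a (0.46 ± 0.21, -0.34 ± 0.16 and -0.57 ± 0.32) in the aged contralateral leg, and Rpl3l, Rps13 and Rpl18 in the aged injured leg (Rps13 -1.11 ± 0.55, Rpl18 0.53 ± 0.26). The edgeR adjusted p was 0.676 or more for all of them but Rpl3l. None passed the test.

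Whether the injury response itself differed between groups was tested by interaction terms in edgeR. In each of age by injury in vehicle mice, NAM/PN by injury in aged mice and NAM/PN by age in injured legs, 0 of 69 members and 0% of all genes were called, with 6, 6 and 4 members at an unadjusted p under 0.05. Over all genes the shares at an unadjusted p are again not given here. For age by injury the interaction was log2 -1.31 ± 0.47 for Rpl3 (a smaller rise with age, adjusted p = 0.381) and 1.11 ± 0.48 for Rpl3l (a smaller fall with age, adjusted p = 0.446). In aged mice the injury effect on Rpl3l was more negative with NAM/PN by 1.55 ± 0.49 on the log2 scale (interaction -1.55, adjusted p = 0.420), which DESeq2 (adjusted p = 0.0469) and voom with quality weights (adjusted p = 0.0305) called. The difference in members called after injury, 11 higher in aged vehicle against 27 in aged NAM/PN mice, is therefore no tested difference.

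Of 7 ribosomal proteins whose names fall outside the rule, among them Rplp0, Rplp1, Rpsa and Rack1, 6 were tested, and 3, 5, 1 and 4 were higher and 0 lower after injury in the same order of groups. These are 50%, 83.3%, 16.7% and 66.7% of the 6, against 29.3%, 22.4%, 20.8% and 29.2% of all genes. Rplp1, a protein of the large subunit stalk, rose in all 4 comparisons by log2 0.56 ± 0.12, 0.69 ± 0.14, 0.37 ± 0.14 and 0.73 ± 0.12 (edgeR adjusted p between 7.42e-06 and 0.0282). Rack1, a scaffold on the small subunit, rose in 3 by log2 0.57 to 0.82 and differed by 0.48 ± 0.20 in aged vehicle mice (adjusted p = 0.0580).

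Of 44 ribosome biogenesis genes, 4, 1, 2 and 4 were higher and 6, 5, 5 and 10 lower in the 4 injury comparisons, with medians of log2 -0.19 to -0.08. The shares were 9.09%, 2.27%, 4.55% and 9.09% higher and 13.6%, 11.4%, 11.4% and 22.7% lower, each below that of all genes (20.8% to 29.3% higher, 17.5% to 26.2% lower). Rrn3, an initiation factor of RNA polymerase I, fell by 0.68 to 0.94 and Mybbp1a, a nucleolar repressor, by 0.54 to 0.72 on the log2 scale in all 4, and Nop58, of the box C/D particles that modify ribosomal RNA, rose in 3 (log2 0.41 to 0.66). Of 37 initiation and elongation factors, 8, 4, 4 and 6 were higher and 10, 9, 12 and 12 lower. The shares were 10.8% to 21.6% higher, each below that of all genes, and 27.0%, 24.3%, 32.4% and 32.4% lower, against 26.2%, 18.1%, 17.5% and 26.1% of all genes. Pabpc1, the poly(A)-binding protein whose mRNA also carries a TOP tract, rose by log2 1.36 to 1.95, whereas Eef1a2, the elongation factor form of muscle and nerve, fell by 1.38 to 2.03, Eif1 by 1.30 to 1.95 and Eif4e, which binds the cap, by 0.60 to 1.14.

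Of 13 tested regulators of the translation of ribosomal protein mRNAs, 0 were higher and 10, 8, 5 and 9 lower after injury, which is 76.9%, 61.5%, 38.5% and 69.2% against 26.2%, 18.1%, 17.5% and 26.1% of all genes. Genes of opposite roles were among them. Tsc1 fell by 0.79 to 1.41, Tsc2 by 0.55 to 1.04 and Akt1s1 by 0.61 to 1.58 on the log2 scale, all 3 inhibitors of mTOR complex 1, and Eif4ebp2, which holds Eif4e inactive, by 1.01 to 1.94. Chosen after their values were seen, Rheb, the activator of the complex, fell in 3 comparisons and differed by -0.59 ± 0.25 in aged vehicle mice, Mtor itself fell in 2 (young vehicle and aged NAM/PN mice), and Larp1, which binds TOP mRNAs, fell in all 4 by 0.65 to 0.97.

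Of 75 mitochondrial ribosomal protein genes tested, 0 were higher and 46, 18, 25 and 40 lower. The shares lower were 61.3%, 24%, 33.3% and 53.3%, against 26.2%, 18.1%, 17.5% and 26.1% of all genes, with medians of log2 -0.63, -0.31, -0.43 and -0.60. Mrpl42 fell by 0.82 to 1.37 and Mrpl55 by 0.91 to 1.35. In the age and treatment comparisons 0 genes of these lists were called. The lists and their genes were chosen with earlier results of these data known.

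Markers of cell types moved in both directions after injury, some up like most members and some down. The 8 mature fiber markers summed to 97963 to 186985 CPM in the 23 contralateral and 22945 to 64968 CPM in the 15 injured legs, with 6, 6, 6 and 7 called lower. The 6 macrophage markers went from 61.4 to 919.8 CPM to between 628 and 1570 CPM (5 or 6 called higher), the 5 myogenic progenitor markers from 5.67 to 99.0 CPM to between 248 and 506 CPM (4 or 5 higher), and the 4 proliferation markers from 0.223 to 31.9 CPM to between 49.2 and 177 CPM (all 4 higher). The 4 fibro-adipogenic markers went from 502 to 2596 CPM to between 2631 and 10025 CPM (2 or 3 higher, 1 lower in aged NAM/PN mice). The 4 erythrocyte markers (hemoglobin genes) went from 349 to 1829 CPM to between 89.6 and 574.8 CPM, with all 4 called lower in each group except aged vehicle mice (0 called). The 3 endothelial markers went from 70.5 to 158 CPM to between 61.2 and 115 CPM (2, 1, 0 and 1 lower) and the 3 neutrophil markers from 0.895 to 122 CPM to between 0.50 and 9.32 CPM (2 of 2 tested lower in aged vehicle mice, 0 in the other injury comparisons). The 4 liver markers were called lower after injury in young vehicle mice (median log2 -6.70) and lower with age in contralateral legs of vehicle mice (median -6.46), both of which hold the young vehicle contralateral libraries described above, and in no other comparison. Of lymphocyte markers Cd79a had no read. The part of these cells in the higher levels of the members was not tested.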

How the data were processed

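QuantSeq 3′ mRNA libraries of 38 gastrocnemius samples were analysed from the gene counts that the authors deposited, 1 table of raw read counts for 27554 Ensembl genes. Per the methods and the submitters' processing notes, reads were aligned to GRCm38 with STAR 2.5.3a and counted with HTSeq 2.16.2. The strand setting, the annotation release and the counting of reads with several matches are not given in the sources used here. Totals ran from 4032414 to 7507191 (median 4983924). Counts are reads and not independent molecules. No column belonged to other samples.

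Counts were tested with edgeR 4.0.16 (R 4.3.3), with its expression filter, TMM scaling, 1 quasi-likelihood fit over all 8 groups and Benjamini-Hochberg adjustment over all 12610 genes tested at 0.05. Errors of log2 fold changes are standard errors, tests are two-sided, and replicates are separate mice. Rpl3 to Rpl3l ratios used exact permutation tests. DESeq2 1.42.0, limma 3.58.1 voom and the settings in the closing section were alternatives. The scripts were tested on simulated data. Sequences came from GENCODE M21 transcripts and RefSeq promoter windows. Named genes were Rpl3, Rpl3l, the detected paralog pairs, the 5 most abundant members, the 5 highest and 5 lowest fold changes of each injury comparison, the 3 smallest p values of each other comparison and up to 4 genes of each other list. Some genes that the rule names are not reported here. Members called in all 4 injury comparisons, members that follow the library axis and those named for shared sequence were chosen after their values were seen. Members and lists were chosen with earlier results of these data known.

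The descriptions give the mouse of each library, and 15 mice gave both legs. Within these mice, the deviation of one leg from its group mean and that of the other had a median correlation of 0.057 (-0.312 to 0.285), above 0.1 in 6 of 15 mice.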

Additional observations from a re-analysis of the deposited data

Results flagged for a closer look

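Among 48 sets of group values looked at for a library apart from its group, 2 were found, and chance alone sets apart about 1 in 20 groups. Rps20 was highest in aged NAM/PN contralateral replicate 4, at 2353 CPM with the nearest library of the group at 1023 CPM. It was also highest in aged NAM/PN injured replicate 4, at 1562 CPM with the nearest at 1003 CPM. Both are among the 5 libraries at the low end of the leading axis.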

How the results depend on the processing

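Without scaling factors the members called were 62, 55, 40 and 61 of 69 after injury (young vehicle and NAM/PN, then aged vehicle and NAM/PN), and the medians 1.44, 1.403, 0.87 and 1.56. The median was then also -0.23 with age in injured legs and 0.40 for NAM/PN in aged injured legs. With the same setting the sign turned for Rps27l in young vehicle (log2 0.61) and aged NAM/PN mice (0.43), for Rpl15 in young vehicle mice (0.034) and for Rpl4 in aged NAM/PN mice (0.96), with a shift of all genes of 0.69 to 1.08. In aged vehicle mice 6 members were called in a fit of the compared groups alone and 21 with voom quality weights (median 0.43). Chosen after seeing the data, the library axis as a covariate gave 27 there, 5 with age in contralateral legs, 1 for NAM/PN in aged injured legs and 2 for age by injury. Without the 7 outer libraries, also chosen afterwards, 38 were called in young NAM/PN mice, the aged vehicle median was 0.42, 1 member was called for NAM/PN in aged injured legs, and the rise of the log2 ratio was 5.14 in young NAM/PN, 3.19 in aged vehicle and 6.89 in aged NAM/PN mice (exact permutation tests in these smaller groups, adjusted p = 0.0595, 0.167 and 0.0595). Without the 3 libraries with liver markers, again chosen afterwards, 19 members were called in young vehicle and 11 in young NAM/PN mice, where the log2 ratio rose by 4.53 (exact permutation test with 2 injured libraries, adjusted p = 0.0952). For NAM/PN in aged injured legs and for NAM/PN by injury DESeq2 and voom each called 1 member, and voom 1 for NAM/PN by age. Apart from fewer libraries in some fits, the cause was not tested. The shares of all genes called in the settings of this section are not given here.

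With the mouse as replicate block, the aged vehicle median was 0.41 (estimated correlation 0.048). With the mouse as a fixed effect, 14 members were called in young NAM/PN mice and the aged vehicle median was 0.44. The paired exact sign-flip test gave log2 ratio changes of 5.87, 4.97, 4.01 and 6.09 in the 4 groups, each with an adjusted p = 0.25, in a design too small to pass the threshold. No other count or median of the members moved past its limit with the mouse or the title number as block.

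Leaving out 1 library gave 18 to 32, 12 to 29, 9 to 17 and 23 to 32 members called after injury in the 4 groups, 0 to 1 for NAM/PN in aged injured legs and 0 in the other comparisons. The log2 ratio rose by 5.48 to 6.13, 4.53 to 5.76, 3.02 to 3.84 and 5.62 to 6.66, with the call lost in 8 of 8 such tests in young NAM/PN and in 3 of 9 in aged vehicle mice. In these tests the groups did not overlap and the p was the smallest that so few libraries allow, so the losses say nothing about stability. With age in contralateral legs it differed by 0.60 to 1.15 and passed once, without aged vehicle contralateral replicate 5.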
